A study of Danio rerio with 12 samples.

Results

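The proteasome genes of zebrafish larvae kept in tritiated water are described here, in comparison with larvae kept without it, at 7 and 10 days post-fertilization (dpf). The genes were taken by name: every gene whose Ensembl zebrafish name begins with psma, psmb, psmc, psmd, psme, psmf or psmg and a digit, without the immune and thymus subunits psmb8, psmb9, psmb11, psmb12 and psmb13. The rule, which reads names alone, found 51 of the 32057 genes in the files. They include PSMB10, the remaining immune subunit, which is counted with the core beta ring. PSMC3IP and PSME3IP1 match the name only, since they are named for binding a subunit and are not themselves parts of the complex, so 49 genes are described as the proteasome set. These are 10 genes of the core alpha ring, 8 of the core beta ring, 7 cap ATPases, 3 base subunits without ATPase activity, 9 lid subunits, 5 activator genes, the regulator PSMF1, 3 chaperones of cap assembly and 3 of core assembly. No gene carried the name psmd2, a base subunit, or psmg4, a core assembly chaperone, so the counts and sums do not cover them. None carried the name psma7 either, but RefSeq also lists PSMA8 under it. Cap genes with other kinds of name, such as ADRM1 and SEM1, do not match the rule and stand among the partners below. Human-style symbols in capitals are the names matched to the Ensembl identifiers of zebrafish genes. Where 2 genes carry 1 symbol they are told apart by their Ensembl identifier.

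The 20S core of the proteasome is a barrel of alpha and beta rings, with the protein-cutting sites on the inner face of the beta rings. The 19S cap sits on the barrel's ends, recognizes proteins tagged with ubiquitin, removes the tag with its lid and unfolds the protein with its ring of ATPases. Other activators (PA28, PA200) open the same barrel without using ATP. The complex supplies most of the regulated protein breakdown of a cell and handles damaged and misfolded proteins.

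Whole larvae of the AB strain were raised from fertilized eggs in embryo medium at one temperature. Exposed larvae were contaminated with tritiated water (HTO), which delivered 0.4 mGy/h, and were incubated in a glove box. Control larvae were left uncontaminated, and their incubator stood in that room but outside the box. There were 4 groups: control and exposed larvae at 7 dpf, and control and exposed larvae at 10 dpf. Each group held 3 libraries that the study design calls biological replicates, prepared from total RNA with a stranded kit for messenger RNA, and the labels do not say how many larvae went into each. The effect of HTO and that of the incubator cannot be told apart. Since whole larvae were measured, fewer cells of a type and less RNA per cell cannot be told apart either.

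The 12 libraries held between 19.4 and 67.3 M reads (M, 1e+06) counted on genes, and the scarcest proteasome gene had at least 50 reads in every library. All 49 genes passed the filter on low counts, which left 23075 genes for testing. Levels are given as CPM, the reads of a gene per 1e+06 reads counted on genes, scaled with TMM factors, and a level can be compared between libraries for 1 gene but not between genes, since no transcript lengths were used. Tests are edgeR quasi-likelihood tests over all 23075 genes, with Benjamini-Hochberg adjusted p-values and a threshold of 0.05. Fold changes are given on the log2 scale with their standard error (SE). A gene is said to have risen or fallen only where it passed that threshold.

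The summed level of the proteasome set was highest in control larvae at 10 dpf and lowest in exposed larvae at 7 dpf. The 49 genes together took 0.332% ± 0.0301 of the reads in control larvae at 7 dpf and 0.286% ± 0.0178 in exposed larvae (SD, n = 3 libraries). At 10 dpf they took 0.459% ± 0.0161 and 0.365% ± 0.000493 (SD, n = 3). The 18 core genes summed to 1405, 1180 and 1186 CPM in the control libraries at 7 dpf and to 1045, 1229 and 1127 CPM in the exposed ones. At 10 dpf the same genes summed to 2046, 1896 and 1789 CPM in control libraries and 1403, 1564 and 1646 CPM in exposed ones. The core sums of the groups overlapped at 7 dpf, and at 10 dpf every exposed library lay below every control library.

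The 19 cap genes followed the same order of groups. They summed to 1709, 1470 and 1469 CPM in control and 1264, 1466 and 1385 CPM in exposed libraries at 7 dpf. At 10 dpf they summed to 2322, 2158 and 2128 CPM in control and 1586, 1766 and 1863 CPM in exposed libraries. Cap sums did not overlap between control and exposed larvae at 10 dpf. At 7 dpf they were apart by a few CPM only, against SDs of 138 CPM in control and 102 CPM in exposed larvae (n = 3). That margin is too narrow to be read as a separation. The 5 activator genes summed to 398, 372 and 395 CPM in control libraries at 7 dpf and to 424, 327 and 345 CPM in control libraries at 10 dpf, ranges that overlap. In exposed libraries they summed to 270.4, 332 and 339 CPM at 7 dpf and 220.5, 264 and 229 CPM at 10 dpf, below the control libraries of the same age in each case. Most of these reads belong to 1 gene, PSME4 ENSDARG00000087911, with means of 269.6 ± 17.9 and 214 ± 33.6 CPM in control and exposed larvae at 7 dpf and 227 ± 40.7 and 135 ± 21.8 CPM at 10 dpf (SD, n = 3). The activator sum therefore mainly follows that gene, and the other activators are given by gene below.

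**Figure D1:**
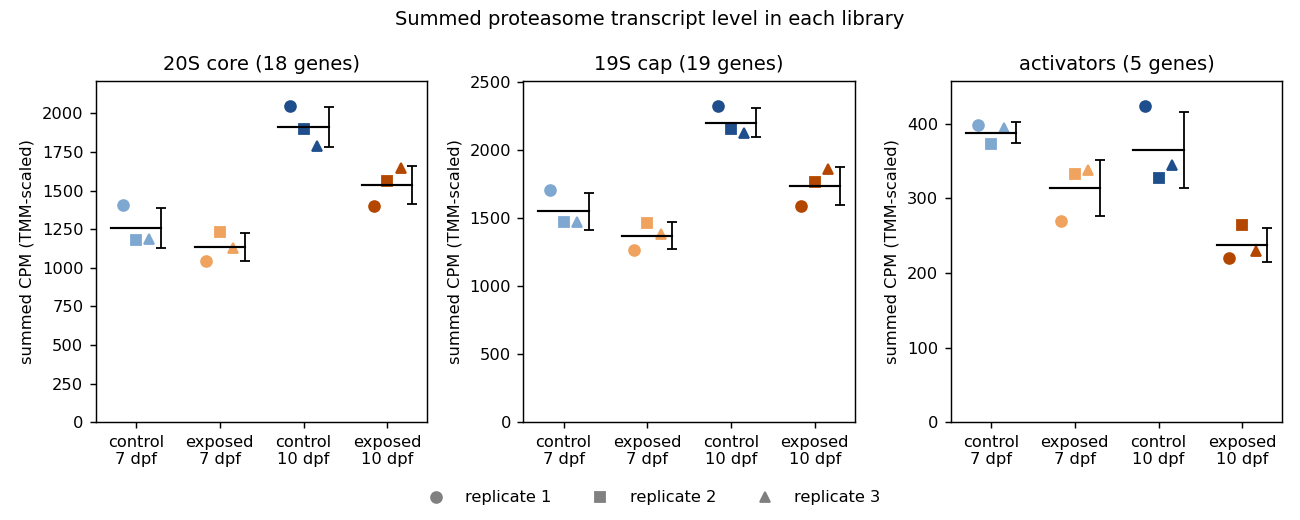
Summed CPM (TMM-scaled) of the 18 core, 19 cap and 5 activator genes in each of the 12 libraries, by group. Points are libraries, shaped by replicate number, horizontal lines are group means and bars are SD (n = 3). Core and cap sums are highest in control larvae at 10 dpf, where the means are 1910.2 and 2203 CPM, and activator sums are lowest in exposed larvae at 10 dpf, where the mean is 238 CPM.

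The proportion of cap to core transcripts varied less than either sum. The ratio of cap to core CPM was 1.217, 1.246 and 1.239 in control and 1.210, 1.193 and 1.229 in exposed libraries at 7 dpf. It was 1.135, 1.138 and 1.190 in control and 1.131, 1.129 and 1.132 in exposed libraries at 10 dpf. Each library at 7 dpf thus had a higher ratio than each library at 10 dpf, by a narrow margin for the closest ones. Control and exposed ranges overlapped at 7 dpf and lay next to each other at 10 dpf. The ratio of activator to core CPM, in which the same PSME4 gene holds most of the activator reads, was 0.283, 0.316 and 0.333 in control and 0.259, 0.270 and 0.301 in exposed libraries at 7 dpf. At 10 dpf it was 0.207, 0.173 and 0.193 in control libraries and 0.157, 0.169 and 0.139 in exposed ones, all below the libraries at 7 dpf. This does not hold for each activator, since PSME1 and PSME2 had fold changes with age of 0.90 and 0.67 in control larvae, PSME1 alone called, against a core median of 0.50. These ratios are descriptions and carry no test.

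Within each group replicate 1 was the highest or the lowest library in most proteasome genes. The other end was less uniform in control larvae at 7 dpf, where replicate 2 was lowest in 20 genes and replicate 3 in 29. In exposed larvae at 10 dpf replicate 3 was highest in 33 genes and replicate 2 in 13. How often these libraries were highest or lowest over all genes was not counted. Replicate 1 had the highest CPM of its group in 48 of the 49 genes in control larvae at 7 dpf and in 45 genes in control larvae at 10 dpf. In exposed larvae replicate 1 had the lowest CPM of its group in 42 genes at 7 dpf and in 43 genes at 10 dpf. At 10 dpf the low place of exposed replicate 1 was not there in the summed reads before scaling. That library had a TMM factor of 1.102, against 0.9842 and 0.9462 in the other exposed libraries. Before scaling the 49 genes took 0.3657% of its reads, against 0.3648 and 0.3649%. The 49 genes are therefore not 49 separate observations of a difference between groups, and replicate 1 of both arms bears on each contrast below. The calls or the median fold change without those libraries are given below for each contrast.

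At 7 dpf no proteasome gene passed the threshold between exposed and control larvae with edgeR, against 0.516% of all tested genes called in either direction. At an unadjusted p under 0.05 there were 11 genes, all with lower values in exposed larvae, against 7.28% of all tested genes lower by that rule. DESeq2 and limma's voom with sample weights each called 2 genes, psma6l and PSME2, both lower. Of all 23075 tested genes DESeq2 called 387 lower and voom 276. All 49 fold changes lay below 0, with a median of -0.15 and a range of -1.29 to -0.02, while 52.6% of all tested genes lay below 0 and their median was -0.01. The median was -0.14 in the core, -0.16 in the cap and -0.33 in the activators. Without replicate 1 of the control larvae the median of the 49 was -0.06 and 40 lay below 0. Without replicate 1 of the exposed larvae the median was -0.10 and 47 lay below 0.

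The 2 genes with the largest differences at 7 dpf were a core paralog and an activator subunit. The gene psma6l, a relative of the alpha subunit PSMA6, read 10.01, 7.99 and 5.996 CPM in control and 4.42, 5.50 and 4.55 CPM in exposed libraries. Every exposed value lay below every control value, and the fold change was -0.73 ± 0.17, adjusted p = 0.0745. PSME2, the beta chain of the PA28 activator, read 22.97, 20.4 and 11.9 CPM in control and 5.89, 9.70 and 6.90 CPM in exposed libraries (-1.29 ± 0.29, adjusted p = 0.0902). Its groups did not overlap either, and control replicate 3 lay closer to the exposed libraries than to the other control libraries. Without that library edgeR called both genes, PSME2 at -1.52 with adjusted p = 0.00691 and psma6l at -0.90 with adjusted p = 0.00349, and without control replicate 1 neither (adjusted p = 0.396 and 0.398). Calls over all genes moved in the same way: 649 of 23488 tested genes were lower without control replicate 3. Without control replicate 1 there were 9 of 23133, and with every library 78 of 23075. The macrophage and neutrophil markers summed to between 84.6 and 135 CPM in control and between 72.5 and 83.9 CPM in exposed libraries at 7 dpf. Of the 10 tested, which include copies of the same symbol, 1 was lower. The part of these cells in the PSME2 value was not tested.

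At 10 dpf the exposed larvae had lower levels of 27 of the 49 proteasome genes and higher levels of none. That is 55.1% of the set, against 7.02% of all tested genes lower and 4.77% higher in the same contrast. The median fold change of the 49 genes was -0.35, a ratio of 0.786, where the median of all tested genes was -0.00 and 50.6% of them lay below 0, as did 46 of the 49. In 39 genes every exposed library lay below every control library, a pattern found in 18.4% of all tested genes. The calls comprised 8 of 18 core genes, 16 of 19 cap genes and 3 of 5 activator genes, and no chaperone and not PSMF1. Core and cap had nearly the same median, -0.34 and -0.37, so the counts of 8 and 16 do not by themselves show a larger fall in the cap, and that difference was not tested.

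These calls depended on single libraries. Without replicate 1 of the control larvae 2 calls were left, psmd4b and PSME4 ENSDARG00000087911, against 662 of all 23112 tested genes lower. A count of 2 is near that share and cannot be read as a result about the set. Without replicate 1 of the exposed larvae 8 calls were left, against 918 of 23461 tested genes lower. The count of calls was 13 without control replicate 2, 26 without control replicate 3, 16 without exposed replicate 2 and 22 without exposed replicate 3. In these fits 998 of 23124, 1232 of 23466, 1135 of 23142 and 1201 of 23502 tested genes were lower, in that order. The median fold change of the 49 genes lay between -0.27 and -0.40 in those 6 fits. Only psmd4b and that PSME4 gene passed the threshold in all 6.

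**Figure D2:**
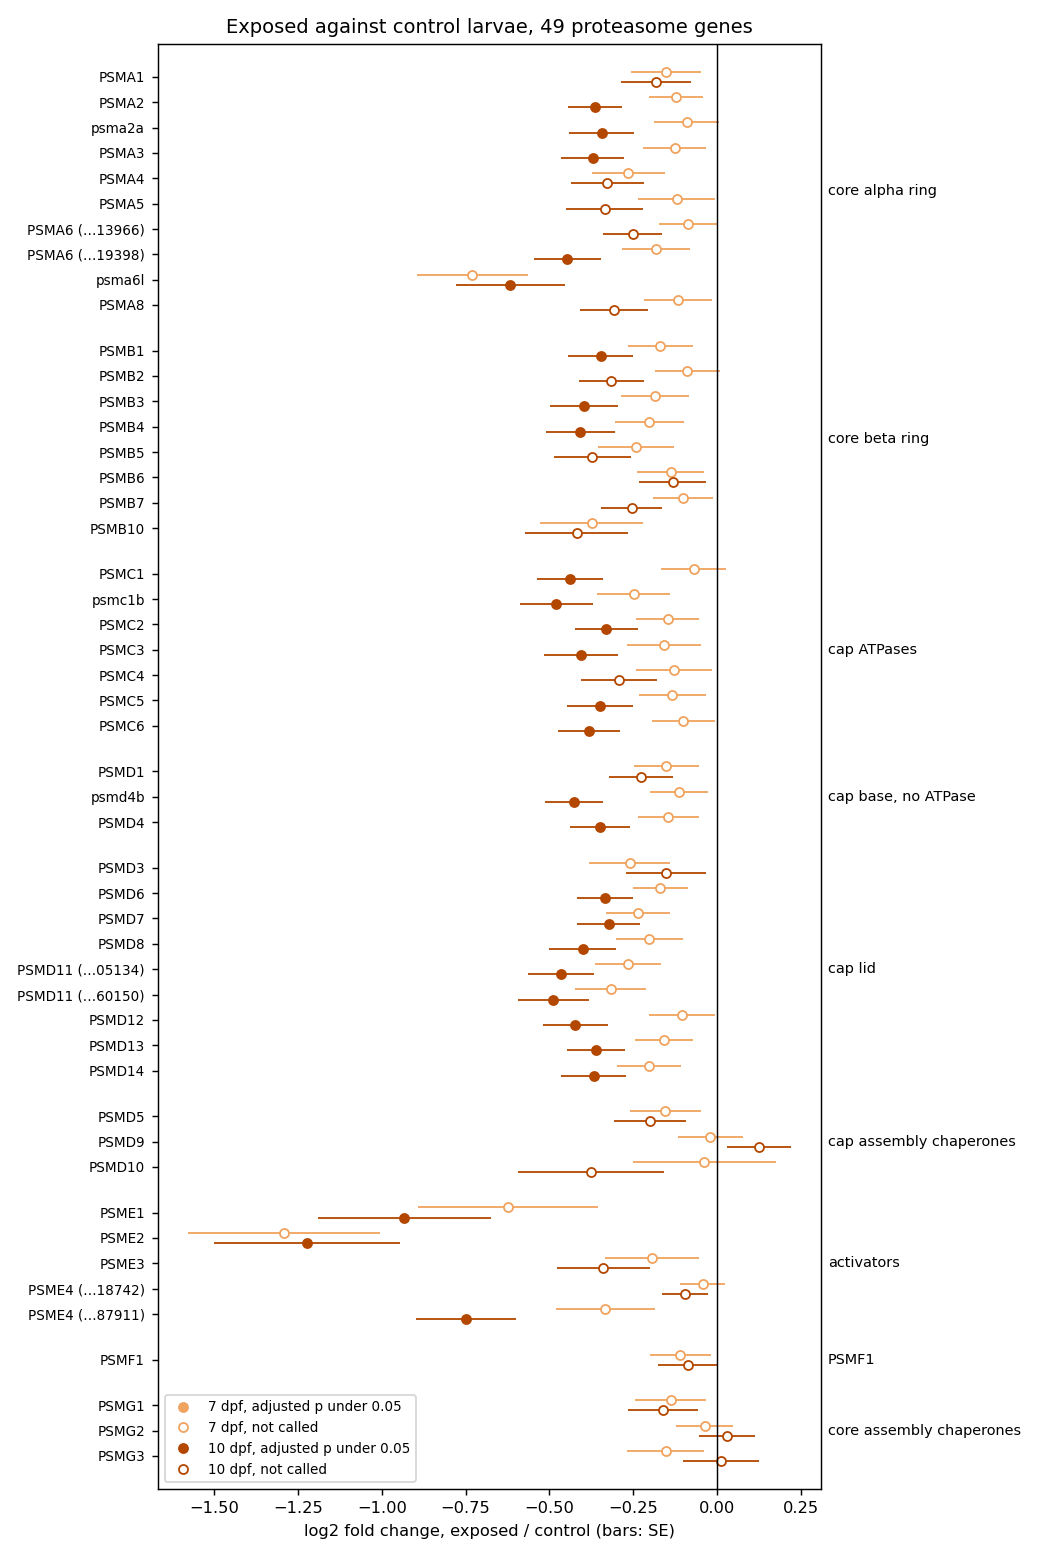
Log2 fold change, exposed over control larvae, of the 49 proteasome genes at 7 dpf (light) and 10 dpf (dark), grouped by place in the complex. Bars are SE and filled points passed an edgeR adjusted p of 0.05, which 0 genes did at 7 dpf and 27 did at 10 dpf. All points at 7 dpf and 46 of 49 at 10 dpf lie left of 0, and PSME2, PSME1 and 1 of the PSME4 genes lie farthest left at 10 dpf.

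In the core, 5 of 10 alpha ring genes and 3 of 8 beta ring genes fell at 10 dpf. PSMA2, an alpha ring subunit, read 73.1, 71.2 and 66.6 CPM in control and 54.01, 55.9 and 53.9 CPM in exposed libraries, with a fold change of -0.36 ± 0.08, adjusted p = 0.0123. The groups were well apart and the exposed libraries within 2 CPM of each other. PSMA6 ENSDARG00000019398, another alpha ring gene, read 63.3, 55.2 and 54.7 CPM in control and 37.8, 45.4 and 43.7 CPM in exposed libraries (-0.45 ± 0.10, adjusted p = 0.0134), again without overlap. The gene psma6l read 11.6, 9.29 and 9.77 CPM against 6.85, 6.599 and 6.58 CPM (-0.62 ± 0.16, adjusted p = 0.0274). Its libraries also stood apart by group, as at 7 dpf. PSMA3 and psma2a were the other alpha ring genes called, with fold changes of -0.37 and -0.34. In the beta ring PSMB1, PSMB3 and PSMB4, structural subunits without a cutting site, fell with fold changes of -0.35, -0.40 and -0.41.

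None of the 3 subunits that carry the cutting sites of the standard core passed the threshold at 10 dpf. PSMB5, the subunit with chymotrypsin-like activity, read 20.2, 20.8 and 17.3 CPM in control and 13.1, 15.98 and 15.9 CPM in exposed libraries, with a fold change of -0.37 ± 0.11, adjusted p = 0.0509. All exposed values lay below all control values, and DESeq2, voom and the fit without control replicate 3 placed it past the threshold. PSMB7, with trypsin-like activity, read 319, 298 and 278 CPM against 226, 252 and 273 CPM (-0.25 ± 0.09, adjusted p = 0.0834). The highest exposed library was within 6 CPM of the lowest control library, and voom alone called it. PSMB6, with caspase-like activity, read 76.2, 68.8 and 69.2 CPM against 63.9, 63.00 and 68.6 CPM (-0.13 ± 0.10, adjusted p = 0.413). Its libraries nearly touched, and no alternative called it.

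In the cap, 6 of 7 ATPase genes, 2 of 3 other base genes and 8 of 9 lid genes fell at 10 dpf. Among the ATPases, which unfold the substrate and feed it into the barrel, psmc1b read 155, 145 and 139 CPM in control and 94.3, 109.7 and 111 CPM in exposed libraries (-0.48 ± 0.11, adjusted p = 0.0142). Its paralog PSMC1 read 49.3, 44.9 and 42.6 CPM against 30.3, 35.8 and 34.9 CPM (-0.44 ± 0.10, adjusted p = 0.0129). In both genes the control libraries lay clear of the exposed ones, with replicate 1 of the exposed larvae lowest. PSMC2, PSMC3, PSMC5 and PSMC6 fell with fold changes between -0.41 and -0.33. PSMC4, at -0.29 ± 0.11, adjusted p = 0.109, was the ATPase gene not called, although its libraries did not overlap.

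PSMD4, a ubiquitin receptor of the cap, is encoded by 2 genes here, psmd4b and PSMD4, and both fell. The levels of psmd4b were 65.8, 57.4 and 55.8 CPM in control and 42.4, 44.4 and 46.4 CPM in exposed libraries, with a fold change of -0.43 ± 0.09, adjusted p = 0.00819. The gap between the groups was wider than the spread of the exposed libraries, and this call held in each of the 6 fits with a library left out. PSMD4 had a fold change of -0.35 ± 0.09, adjusted p = 0.0251, and its call ended without control replicate 1, control replicate 2 or exposed replicate 1. The scaffold subunit PSMD1 was not called (-0.23 ± 0.10, adjusted p = 0.141), and its libraries overlapped.

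In the lid, both genes for PSMD11, a subunit that helps to hold cap and core together, were among the 8 lid genes that fell. PSMD11 ENSDARG00000005134 read 98.6, 89.6 and 87.4 CPM in control and 58.5, 70.3 and 70.95 CPM in exposed libraries (-0.46 ± 0.10, adjusted p = 0.0105). PSMD11 ENSDARG00000060150 read 65.4, 59.2 and 57.6 CPM against 40.2, 47.6 and 41.9 CPM (-0.49 ± 0.11, adjusted p = 0.0114). Neither gene overlapped between groups. PSMD14, the lid enzyme that cuts ubiquitin off the substrate, fell with a fold change of -0.37, from 133 ± 9.43 CPM to 103 ± 9.23 CPM (SD, n = 3). PSMD6, PSMD7, PSMD8, PSMD12 and PSMD13 fell with fold changes between -0.42 and -0.32. PSMD3 was the lid gene not called: it read 205, 180.3 and 229 CPM in control and 166, 175 and 213 CPM in exposed libraries (-0.15 ± 0.12, adjusted p = 0.435), and the groups overlapped.

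The activators had the largest fold changes of the set and the least uniform ones, with a median of -0.75 at 10 dpf. PSME1 and PSME2 encode the chains of PA28, which in mammals is induced by interferon. PSME1 read 23.6, 16.9 and 17.1 CPM in control and 8.18, 11.48 and 10.4 CPM in exposed libraries (-0.93 ± 0.26, adjusted p = 0.0412), without overlap. This call ended in each of the 6 fits with a library left out. PSME2 read 36.2, 26.3 and 25.7 CPM against 9.38, 14.1 and 14.3 CPM (-1.22 ± 0.28, adjusted p = 0.0212), also without overlap. Its call ended without control replicate 1 (adjusted p = 0.0830) or exposed replicate 1 (adjusted p = 0.0687), and 25.2% of the reads at its locus lay on the other strand. PSME3, the nuclear PA28 chain, read 28.1, 22.6 and 21.96 CPM against 16.8, 20.7 and 19.96 CPM and was not called (-0.34 ± 0.14, adjusted p = 0.127), with exposed values just below the control values.

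Of the 2 genes for PSME4, which encodes the nuclear activator PA200, 1 fell and the other was not called. PSME4 ENSDARG00000087911 read 273, 196 and 212 CPM in control and 122, 160.1 and 123 CPM in exposed libraries (-0.75 ± 0.15, adjusted p = 0.0081). Every exposed value was below every control value, and the call held in each of the 6 fits with a library left out. PSME4 ENSDARG00000018742 read 62.6, 65.5 and 68.4 CPM against 64.4, 57.6 and 61.8 CPM (-0.10 ± 0.07, adjusted p = 0.381), with overlapping groups. At 7 dpf the former had read 265, 254 and 289 CPM in control and 176, 229 and 238 CPM in exposed libraries (-0.33 ± 0.15, adjusted p = 0.399), without overlap and not called. The latter had read 71.7, 66.03 and 69.8 CPM and 66.99, 65.4 and 69.2 CPM (-0.04 ± 0.07, adjusted p = 0.891). The difference between the 2 genes' fold changes was not tested.

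**Figure D3:**
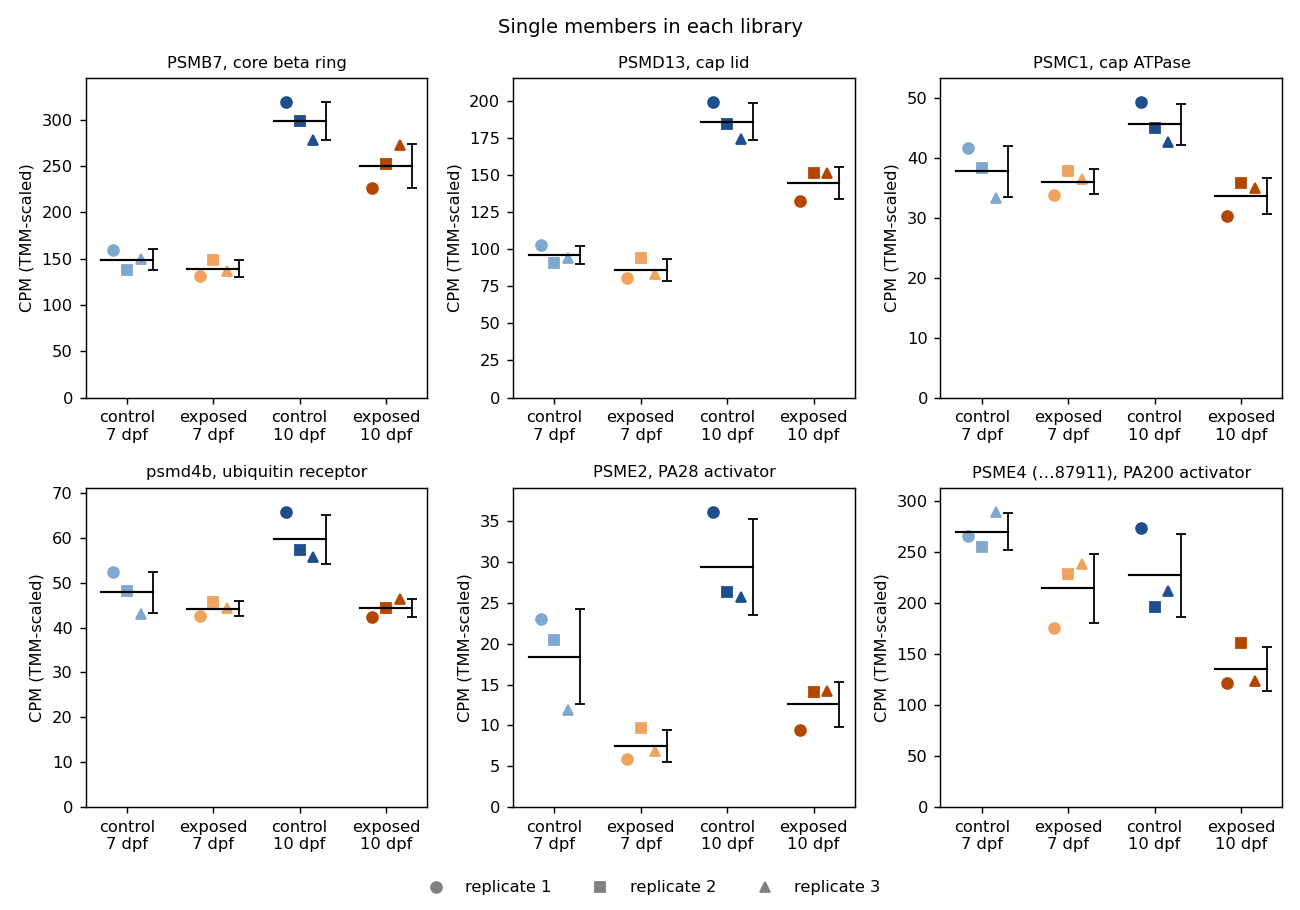
CPM (TMM-scaled) of 6 proteasome genes in each library, by group. Points are libraries, shaped by replicate number, horizontal lines are group means and bars are SD (n = 3). PSMB7 and PSMD13 are higher at 10 than at 7 dpf in both arms. PSMC1 and psmd4b are higher at 10 than at 7 dpf in control larvae and overlap between the ages in exposed larvae. PSME2 and PSME4 ENSDARG00000087911 are lower in exposed larvae at both ages. By edgeR none of the 6 was called by exposure at 7 dpf or for a change of the exposure effect between the ages.

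None of the 6 assembly chaperone genes of the set was called by exposure at 10 dpf. Of all tested genes 7.02% were lower and 4.77% higher, so the lack of calls among 6 genes is no result about them. POMP, which matures the core and fell, is not in the set and is given among the partners below. Of the 3 core assembly chaperones, PSMG2 read 41.2, 35.7 and 35.4 CPM in control and 36.9, 38.5 and 39.3 CPM in exposed libraries (0.03 ± 0.08, adjusted p = 0.85). PSMG1 and PSMG3 had fold changes of -0.16 and 0.01, not called. Of the cap assembly chaperones, PSMD9 was at 0.13 ± 0.10, adjusted p = 0.411, PSMD5 at -0.20 ± 0.11, adjusted p = 0.239 and PSMD10 at -0.38 ± 0.22, adjusted p = 0.277. Control and exposed libraries overlapped in 5 of these 6 genes, the exception being PSMG1. Over all tested genes 18.4% did not overlap with lower and 15.4% with higher values in exposed larvae. PSMF1, which binds the core and inhibits it in vitro, read 16.5, 14.7 and 14.7 CPM against 13.6, 13.96 and 15.8 CPM (-0.09 ± 0.09, adjusted p = 0.568). Some of these genes are scarce, with PSMD10 between 1.62 and 2.96 CPM at 10 dpf, which limits what their test could detect.

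Some marker genes of cell types also differed between the groups at 10 dpf, where 7.02% of all tested genes were lower and 4.77% higher. The 15 genes of a macrophage and neutrophil list summed to between 158 and 182 CPM in control libraries and between 81.7 and 117 CPM in exposed libraries, and 3 of the 10 that were tested were lower. The listed genes mpx and lyz were not among those tested, so the list hardly covers neutrophils. The 10 tested genes include copies of MPEG1 and of MFAP4, which are not separate markers. The largest, MPEG1 ENSDARG00000043093, read 83.9, 79.2 and 90.9 CPM in control and 29.4, 53.4 and 42.8 CPM in exposed libraries. The next, csf1ra, read 29.4, 27.0 and 30.5 CPM against 27.1, 25.1 and 31.1 CPM, with overlap. Of 7 cell division genes 4 were lower, and their sum ran from 82.9 to 101 CPM in control and from 59.5 to 63.8 CPM in exposed libraries. Photoreceptor genes, 3 of 7 called, were higher, from 463 to 518 CPM in control and from 794 to 1013 CPM in exposed libraries. Of 6 neuron genes 2 were higher, with sums of 1324 to 1443 CPM and 1595 to 1840.1 CPM. Liver, exocrine pancreas and fast muscle lists held no called gene among 5, 4 and 6. In exposed larvae at 10 dpf the liver list ran from 409.8 to 3088 CPM and the pancreas list from 1839.8 to 15653 CPM, with replicate 1 lowest in both, against 2852 to 2982 CPM and 12455 to 15235 CPM in control larvae. Not every listed marker matched a gene name. Matches were found for 4 of 6 in fast muscle, 3 of 5 in exocrine pancreas and 4 of 5 in photoreceptors. In the macrophage and neutrophil list 6 of 7 matched. None of the matched marker genes was at 0 in all libraries, and the part of these cell types in the proteasome values was not tested.

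The change of the exposure effect between 7 and 10 dpf was tested directly and was not detected for any proteasome gene. The difference of the 2 fold changes passed the threshold for 0 of 49 genes, against 0.269% of all tested genes, and for 0 with DESeq2 and voom. At an unadjusted p under 0.05 there were 3 genes, PSMC1, psmd4b and PSMD12, against 11.3% of all tested genes, all with a lower fold change at 10 dpf. The differences of the 49 genes ran from -0.42 to 0.16 with a median of -0.18. The median was -0.27 without control and -0.24 without exposed replicate 1 of 7 dpf. It was -0.12 without control and -0.14 without exposed replicate 1 of 10 dpf. The larger number of calls at 10 dpf is thus not shown to be a larger effect for any single gene.

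Between 7 and 10 dpf 34 of the 49 proteasome genes rose in control larvae and none fell, against 14.3% of all tested genes higher and 15% lower. The calls comprised 15 of 18 core genes, 17 of 19 cap genes, all 7 ATPases among them, PSME1 among the activators and PSMG2 among the core assembly chaperones. In 36 genes every library at 10 dpf lay above every library at 7 dpf, as in 22.5% of all tested genes. The median fold change was 0.40 over the set, 0.50 in the core and 0.40 in the cap. Leaving out 1 library at a time gave between 26 and 37 calls, 26 without replicate 1 of 10 dpf and 37 without replicate 1 of 7 dpf. In these fits 2475 of 23112 and 3159 of 23133 tested genes were higher, in that order. Over the same days all 7 cell division markers and all 7 photoreceptor markers were lower in control larvae, 5 of 6 fast muscle and 3 of 6 neuron markers were lower and 3 of 10 macrophage and neutrophil markers were higher, and the part of these cells in the rise was not tested.

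In exposed larvae 20 of 49 genes rose and 1 fell over the same days, against 10.8% of all tested genes higher and 12.4% lower. The calls comprised 10 core genes, 8 cap genes, PSMD9 and PSMG2 upward, and PSME4 ENSDARG00000087911 downward. In 27 genes every library at 10 dpf lay above every library at 7 dpf, as in 19.4% of all tested genes. The median fold change was 0.24 over the set, 0.34 in the core and 0.23 in the cap, and leaving out 1 library gave between 14 and 27 calls. Without exposed replicate 1 of 7 dpf 13 genes rose and 1 fell, and without that of 10 dpf 20 rose and 1 fell. Of all tested genes 1748 of 23144 rose and 2025 fell in the former fit. In the latter 2179 of 23461 rose and 2772 fell. Over these days all 7 cell division markers, 5 of 7 photoreceptor, 4 of 6 fast muscle, 1 of 6 neuron and 1 of 5 liver markers were lower in exposed larvae and 2 of 10 macrophage and neutrophil markers were higher, and their part in the proteasome values was not tested. The age contrasts use the same libraries as the exposure contrasts, so the 4 sets of fold changes are not independent of each other. The test of a difference between the age effects is the one above for the exposure effects, with 0 genes called.

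**Figure D4:**
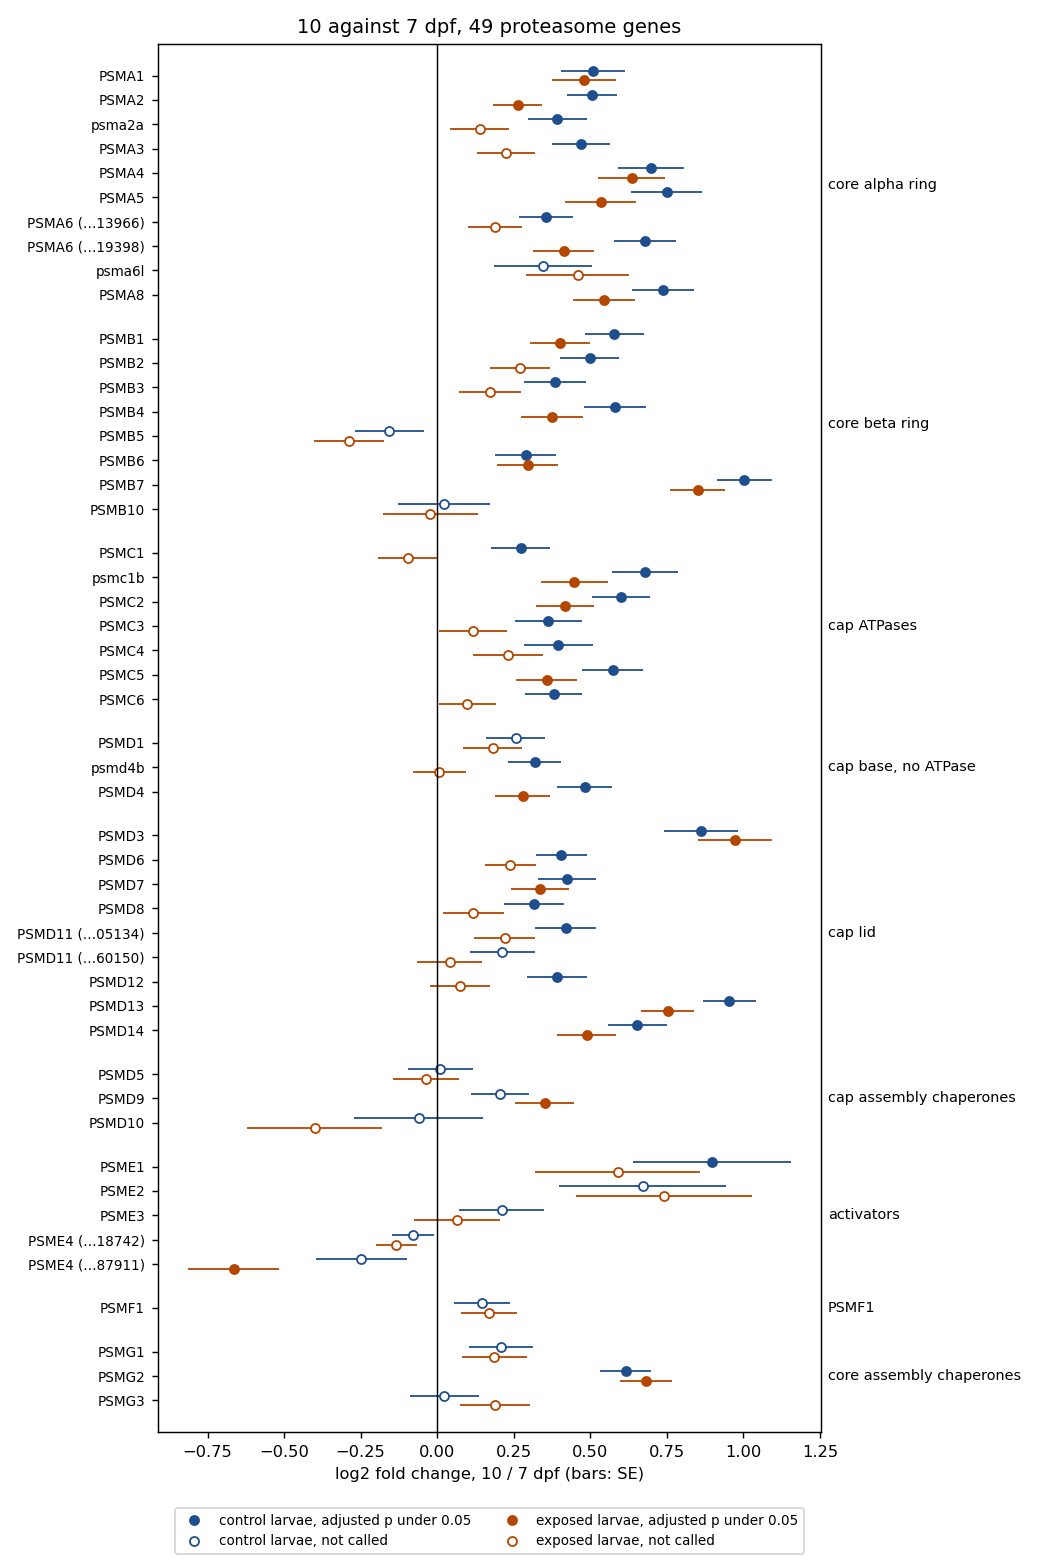
Log2 fold change, 10 over 7 dpf, of the 49 proteasome genes in control (blue) and exposed (orange) larvae, grouped by place in the complex. Bars are SE and filled points passed an edgeR adjusted p of 0.05: 34 higher genes in control larvae, and 20 higher and 1 lower in exposed larvae. PSMB7, PSMD13 and PSMD3 lie farthest right in exposed larvae, and PSMB5 lies left of 0 in both arms.

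The rise with age was uneven across the catalytic subunits. PSMB7 had read 159.6, 138 and 149 CPM in control and 131, 149 and 137 CPM in exposed libraries at 7 dpf. Its fold change with age was 1.003 ± 0.09, adjusted p = 5.35e-06 in control and 0.85 ± 0.09, adjusted p = 2.72e-05 in exposed larvae, and its libraries of the 2 ages did not overlap in either arm. PSMB6 had read 68.03, 49.8 and 57.3 CPM in control and 50.2, 56.3 and 52.8 CPM in exposed libraries at 7 dpf, and changed by 0.29 ± 0.10, adjusted p = 0.044 in control and 0.29 ± 0.10, adjusted p = 0.0489 in exposed larvae. Both calls of PSMB6 ended when single libraries were left out, 5 of the 6 that enter each contrast, the exceptions being replicate 1 of the control and replicate 2 of the exposed larvae at 7 dpf. PSMB5 had read 22.6, 22.1 and 20.3 CPM in control and 19.4, 15.7 and 20.2 CPM in exposed libraries at 7 dpf and was not called, at -0.16 ± 0.11, adjusted p = 0.33 in control and -0.29 ± 0.11, adjusted p = 0.0882 in exposed larvae. PSMB10, the inducible counterpart of PSMB7, was not called either, with fold changes of 0.02 and -0.02.

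Of the other subunits with the smallest p-values for age, PSMD13, a lid subunit, had read 103, 91.00 and 94.2 CPM in control and 80.5, 94.1 and 83.3 CPM in exposed libraries at 7 dpf. At 10 dpf it read 199, 185 and 174 CPM and 133, 151 and 151 CPM. Both arms rose without overlap, by 0.95 ± 0.09, adjusted p = 5.66e-06 in control and 0.75 ± 0.09, adjusted p = 4.8e-05 in exposed larvae. PSMD3, which had not differed by exposure at 10 dpf beyond the spread of its libraries, had read 127, 96.98 and 114 CPM and 90.2, 99.7 and 92.2 CPM at 7 dpf and rose by 0.86 ± 0.12, adjusted p = 0.000173 and 0.97 ± 0.12, adjusted p = 8.58e-05. PSMG2, which assists the assembly of the alpha ring, had read 25.8, 23.9 and 23.6 CPM and 22.6, 26.1 and 22.7 CPM and rose by 0.62 ± 0.08, adjusted p = 0.000152 and 0.68 ± 0.08, adjusted p = 8.68e-05. PSMA8, which RefSeq also lists as psma7, had read 170.0, 145 and 141 CPM and 128, 156 and 137 CPM, then 270.0, 255 and 235 CPM and 185, 213 and 217 CPM. Its fold changes with age were 0.74 ± 0.10, adjusted p = 0.000157 in control and 0.54 ± 0.10, adjusted p = 0.00176 in exposed larvae. PSMA4, PSMA5 and PSMD14 rose in both arms too, by 0.70, 0.75 and 0.65 in control and 0.64, 0.53 and 0.49 in exposed larvae.

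Among the 5 activator genes, age brought 1 call upward in control larvae and 1 downward in exposed larvae. PSME1 had read 13.96, 10.3 and 6.46 CPM in control and 5.54, 8.11 and 6.34 CPM in exposed libraries at 7 dpf, and rose in control larvae (0.90 ± 0.26, adjusted p = 0.0233), a call that ended without control replicate 2 at 7 dpf or control replicate 1 at 10 dpf. In exposed larvae it was not called (0.59 ± 0.27, adjusted p = 0.142). PSME2 was not called in either arm, at 0.67 ± 0.27, adjusted p = 0.0931 and 0.74 ± 0.29, adjusted p = 0.0926, although DESeq2 and voom called it in both. PSME3 had read 24.2, 21.4 and 17.2 CPM and 16.3, 20.4 and 18.3 CPM at 7 dpf, and its fold changes with age were 0.21 and 0.07, not called. PSME4 ENSDARG00000087911 fell in exposed larvae (-0.67 ± 0.15, adjusted p = 0.0065), and in control larvae its change was -0.25 ± 0.15, adjusted p = 0.234. PSME4 ENSDARG00000018742 had fold changes of -0.08 and -0.13, not called. PSMF1 had read 14.4, 14.3 and 12.8 CPM and 12.97, 13.4 and 12.1 CPM at 7 dpf and was not called in either arm, at 0.15 and 0.17.

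Subunits encoded by more than 1 gene allow a comparison within a position of the complex. PSMC1 and psmc1b both fell with exposure at 10 dpf, with fold changes of -0.44 and -0.48. With age psmc1b rose in both arms, by 0.68 ± 0.11, adjusted p = 0.000491 in control and 0.45 ± 0.11, adjusted p = 0.00949 in exposed larvae. PSMC1 was just past the threshold in control larvae (0.27 ± 0.10, adjusted p = 0.0498), a call that ended without control replicate 2 or 3 at 7 dpf or control replicate 1 or 2 at 10 dpf, and it was at -0.10 in exposed larvae. Of the PSMD4 pair, psmd4b rose with age in control larvae (0.32 ± 0.09, adjusted p = 0.0136), a call that ended without control replicate 3 at 7 dpf or control replicate 1 at 10 dpf, and was at 0.01 in exposed larvae. PSMD4 rose by 0.48 ± 0.09, adjusted p = 0.0014 in control and 0.28 ± 0.09, adjusted p = 0.0396 in exposed larvae, the latter lost without exposed replicate 1 or 3 at 7 dpf or exposed replicate 2 or 3 at 10 dpf. No test was made of 1 paralog against the other.

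The alpha ring pairs had fold changes of the same direction in each contrast shown. PSMA2 and psma2a had fold changes of -0.36 and -0.34 with exposure at 10 dpf, and of 0.51 and 0.39 with age in control larvae, all 4 called. PSMA6 ENSDARG00000019398 fell with exposure at 10 dpf, whereas PSMA6 ENSDARG00000013966 read 66.5, 62.2 and 57.00 CPM in control and 47.95, 54.7 and 53.4 CPM in exposed libraries and was not called (-0.25 ± 0.09, adjusted p = 0.0803). At the latter gene 27.6% of the reads lay on the other strand. Both rose with age in control larvae, by 0.68 and 0.35. Of the PSMD11 genes, PSMD11 ENSDARG00000005134 rose with age in control larvae (0.42 ± 0.10, adjusted p = 0.00623) and PSMD11 ENSDARG00000060150 was not called (0.21 ± 0.11, adjusted p = 0.15). Reads that map to more than 1 place are counted apart from the gene counts in the files, so levels of closely similar copies may be too low by unknown amounts.

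Genes that work next to the proteasome are given in 3 lists, beside the 7.02% of all tested genes lower and 4.77% higher at 10 dpf. The lists were chosen with earlier results of these data known, so their counts are a description and not an independent comparison with that share. Of 12 genes of proteasome partners 6 fell and none rose, with a median of -0.25. They were POMP, which matures the core (-0.40), ADRM1, another ubiquitin receptor of the cap (-0.27), the cap's deubiquitinase USP14 (-0.48), the scaffold ECPAS (-0.39), the thioredoxin-like TXNL1 (-0.45) and the ubiquitin ligase ube3a (-0.28). UCHL5, the other cap-bound deubiquitinase, was at 0.05 with adjusted p = 0.802. Of 15 genes of transcriptional control 2 fell, NFE2L2 (-0.41, adjusted p = 0.0213) and the deglycosylase NGLY1 (-0.42, adjusted p = 0.0133), and the median was -0.04. With 2 calls, that list is too near the share over all genes to be read as a result about it. NFE2L1, whose mammalian protein drives proteasome genes when the complex is inhibited, was at -0.31 with adjusted p = 0.169. Its protease DDI2 was at -0.27 with adjusted p = 0.0548.

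Of 16 ubiquitin and shuttle genes 7 fell and none rose, with a median of -0.29. VCP, the ATPase that extracts tagged proteins from membranes and complexes, had the largest called change (-0.71 ± 0.13, adjusted p = 0.00487). Its cofactors NSFL1C (-0.34), UFD1 (-0.30), NPLOC4 (-0.35) and FAF1 (-0.33) fell as well, as did the ubiquitin-activating enzyme uba1 (-0.34) and the shuttle rad23ab (-0.20). The ubiquitin genes ubb ENSDARG00000093313 and UBB ENSDARG00000002369 had fold changes of -1.53 and -1.33 and were not called (adjusted p = 0.0758 and 0.0842), while ubc was at -0.00. At 7 dpf none of the genes of these 3 lists passed the threshold. Without control replicate 1 at 10 dpf the 3 lists had 2, 0 and 1 calls left, without control replicate 2 they had 3, 2 and 4, without exposed replicate 1 they had 2, 1 and 2, and without exposed replicate 2 they had 3, 1 and 8. Without replicate 3 of either arm they had 5, 2 and between 4 and 5. The counts of lower genes over all tested genes in these fits are those given above for the proteasome set.

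**Figure D5:**
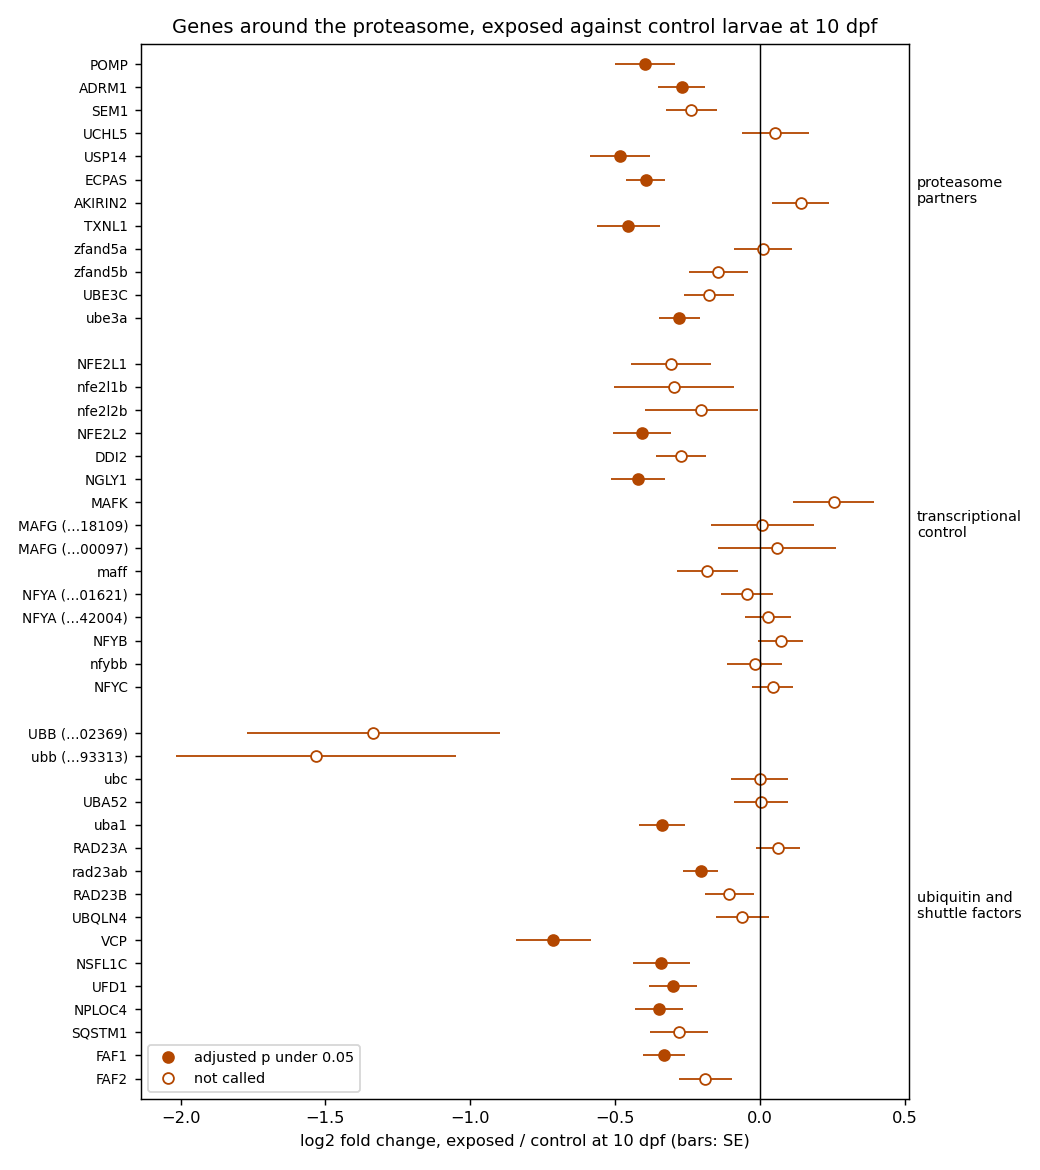
Log2 fold change, exposed over control larvae at 10 dpf, of 12 partners of the proteasome, 15 genes of its transcriptional control and 16 ubiquitin and shuttle genes. Bars are SE and filled points passed an edgeR adjusted p of 0.05: 6, 2 and 7 genes, all lower in exposed larvae. VCP, at -0.71, lies farthest left among the called genes, and the 2 ubiquitin genes farther left have the widest SE.

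The immune subunits left out of the set, which replace the standard cutting subunits in immune cells, had lower values in exposed larvae at 10 dpf. PSMB9 went from 3.80 ± 0.490 CPM in control to 1.51 ± 0.170 CPM in exposed larvae (SD, n = 3), a fold change of -1.32 ± 0.27 with adjusted p = 0.00800, and psmb13a (-1.74) and psmb12 (-1.18) fell as well. PSMB8 was not called (-1.45, adjusted p = 0.121), and PSMB10, the remaining immune subunit and a member of the set, was at -0.42 ± 0.15, adjusted p = 0.0938. At 7 dpf none of them was called, at -1.34 (PSMB9), -1.91 (psmb13a), -1.59 (psmb12), -1.83 (PSMB8) and -0.37 (PSMB10). The exposed means of PSMB8, PSMB9, psmb12 and psmb13a at that age lay between 0.389 and 0.893 CPM. The difference of the exposure effects between the ages was called for none of these genes. The 2 genes that match the name rule without being proteasome parts were not called by exposure at either age; PSMC3IP, a meiotic recombination factor, fell with age in exposed larvae (-1.18 ± 0.25, adjusted p = 0.00403) and PSME3IP1 was not called with age.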

How the data were processed

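RNA of 12 libraries of whole zebrafish larvae was sequenced in paired ends after a stranded messenger RNA preparation, per the labels' protocols. The deposited files hold raw counts per gene in the layout of STAR's gene count output, with 1 column for each reading of the strand, and the submitters' processing notes name STAR and the build GRCz11, with no versions. The counts of the column for the strand opposite to read 1 were used, since between 2.24 and 2.55% of reads fell on the other strand. Reads that map to several places and reads without a gene stand in rows of their own and entered neither library sizes nor tests. Groups came from the sample titles.

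Counts were scaled with TMM and filtered with filterByExpr (minimum count 10, minimum total 15), and all 4 groups were fitted in 1 robust quasi-likelihood model with 8 residual degrees of freedom (R 4.3.3, edgeR 4.0.16). SE is the absolute log2 fold change divided by the square root of F. Alternatives used RLE and upper quartile scaling, other filters, a replicate block, unstranded counts, DESeq2 1.42.0, voom with sample weights (limma 3.58.1), the compared groups alone and each library left out. The scripts were tested on simulated data. Depth of 19.4 to 67.3 M reads (M, 1e+06) on genes gave at least 50 reads per proteasome gene and library, and these reads carry no molecular identifiers, so the precision of a value rests on 3 libraries per group. If libraries of a group share a culture, p-values measure only the spread between these libraries.

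Gene symbols were taken from the Ensembl identifier table for 28988 of 32057 genes. No coordinates or sequences are given. The members and gene lists were chosen with earlier results of these data known. Genes with values for every library were taken from the called members with the smallest p in each comparison (at most 8). They were also taken from the catalytic subunits, the activators, PSMF1 and paralogs of 1 human gene. PSMA4, PSMA5, PSMD14, psma2a and PSMD4 are among these, but are given by fold changes or group means only. The other members are given by fold changes and counts.

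Replicate numbers are shared by the groups in the labels. Deviations from the group means correlated between -0.20 and 0.22 for libraries with the same number (18 pairs) and between -0.28 and 0.25 for other pairs (36). The numbers were not taken to pair the libraries, but these pooled ranges do not settle whether they pair within an arm. Between the ages, same-number control libraries correlated at 0.22, 0.04 and 0.18, and other control libraries between -0.24 and 0.04. Same-number exposed libraries of the 2 ages correlated at 0.08, 0.16 and -0.14.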

Additional observations from a re-analysis of the deposited data

Results flagged for a closer look

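Reads on the strand opposite to the proteasome genes, which no comparison above uses, made up a larger part of the reads at these loci in exposed larvae at 10 dpf than in control larvae of that age. Their mean share was 1.237% in exposed larvae, with libraries from 1.16 to 1.303%, and 1.029% in control larvae, with libraries from 1.005 to 1.066%. In CPM the same reads were at 45.4 ± 2.94 in exposed and 47.7 ± 2.66 in control larvae (SD, n = 3). On the genes' own strand the sum was 3628 ± 278 CPM in exposed and 4596 ± 289 CPM in control larvae (SD, n = 3). The larger share thus goes with the lower sum on the genes' own strand, and not with more CPM on the opposite strand. The cause of the lower sum was not tested. At 7 dpf the shares were 1.233% in exposed and 1.161% in control larvae. The share differed widely between loci: over all libraries it was highest at PSMA6 ENSDARG00000013966 (27.6%), PSME2 (25.2%) and PSMA2 (9.97%). Over all genes the opposite strand held 2.248, 2.531 and 2.504% of reads in exposed libraries at 10 dpf. In control libraries of that age it held 2.549, 2.538 and 2.401%, so these ranges overlapped. No group has enough libraries for a search for single outlying values, which needs at least 4.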

How the results depend on the processing

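The count of 27 proteasome genes lower at 10 dpf lay between 18 (replicate block) and 34 (voom) under the 9 alternatives that kept every library of the compared groups. Of the 27, 16 were called in all 9. With the block the count was 18, and with the compared groups alone 22. Leaving out 1 library at a time gave 2 to 26. At 7 dpf 2 genes were called by DESeq2 and 2 by voom, and 0 to 2 with a library left out. For the difference of the exposure effects, 0 proteasome genes were called under every alternative run; these differences were recomputed as counts only, not gene by gene. Over all tested genes the calls at 7 dpf numbered 119, against 62 with the replicate block, 595 with DESeq2, 447 with voom, 66 with the compared groups alone and 12 to 831 with a library left out. The calls for the difference numbered 62, against 22 with the block, 280 with DESeq2, 152 with voom and 10 to 63 with a library left out. At 10 dpf they numbered 2721, against 2086 to 3956 with every library of the compared groups kept and 1153 to 2145 with a library left out.

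With strand ignored, the ratio of cap to core CPM was 1.18 and 1.16 in control and exposed larvae at 7 dpf, and 1.11 and 1.09 at 10 dpf. PSMD4 and PSMD7 kept 0.377 and 0.4003 of their reads in those counts.

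Reversals were followed for the named genes only, and no called fold change of these reversed. Over all 49 genes at 7 dpf, 48 lay below 0 with RLE scaling, with unstranded counts and with voom, and 40 without control replicate 1. Uncalled values of named genes crossed 0 with a library left out. At 7 dpf, leave-one-out fold changes with exposure ran from -0.24 to 0.0046 for PSMB6, -0.075 to 0.00033 for PSME4 ENSDARG00000018742, -0.16 to 0.012 for psma2a and -0.15 to 0.027 for PSMC1, the upper values without control replicate 1. With age in exposed larvae they ran from -0.0065 to 0.17 for PSME3, -0.012 to 0.050 for psmd4b (also -0.010) and -0.035 to 0.12 for PSMD11 ENSDARG00000060150 (also -0.029). The values below 0 came without exposed replicate 1 at 7 dpf, and for the last 2 genes also without exposed replicate 3 or 2 at 10 dpf. Of the other values of named genes 1289 kept direction and side of the threshold, 69 lost a call and 28 gained one. The causes were not tested. With 3 libraries a group, and 1 of them setting many calls, small differences may have gone undetected.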
